A study of Mus musculus with 6 samples.

Results

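The 10 genes described here are Trp53, which encodes the tumour suppressor p53, and 9 genes known as p53 targets in mouse or human cells, namely Mdm2, Ccng1, Phlda3, Sesn2, Zmat3, Aen, Eda2r, Perp and Trp53inp1. They were chosen by name, from membership in the p53 pathway and not from a measured value, and are 10 of the 55487 genes listed in the counts. RNA was read from LSK cells, the lineage-negative, c-KIT-positive, SCA1-positive fraction of bone marrow in which the stem cells and early progenitors of blood are found, in 3 BrmKO mice (Brm-/-, lacking the SWI/SNF ATPase BRM, which Smarca2 encodes) and 3 wild-type (WT) mice, each mouse giving a library. All mice are labelled with the strain background C56Bl/6. The sources used here give neither age nor sex, nor which part of Brm was removed.

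p53 is a transcription factor whose protein is kept low in unstressed cells, mainly because the ubiquitin ligase MDM2 marks it for degradation. DNA damage or other stress stabilises the protein, which then switches on genes for cell cycle arrest, repair, altered metabolism and cell death, and also Mdm2 itself, so that the response limits its own strength. In blood stem cells p53 is known to restrain cycling and to set how readily the cells die after damage. Much of the control of p53 thus acts on the protein, which RNA counts do not measure.

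The files gave 29184342 to 33288221 reads in genes per BrmKO library and 28013994 to 36457027 per WT library. Smarca2 stood at 27.1 ± 0.685 CPM (read counts scaled to library size, with edgeR's TMM factors) in BrmKO and 179 ± 31.9 CPM in WT (SD, n = 3 each), with a log2 fold change of -2.72 ± 0.13 (SE; edgeR, adjusted p = 2.97e-05). Of 12 LSK and stem cell markers, all 12 had reads in every library, with Kit at 947 to 1003 CPM in BrmKO and 848 to 1030 CPM in WT, and a summed level of 3671 to 3866 CPM in BrmKO and 3542 to 3856 CPM in WT. Of 8 T and NK markers, Cd3e had no read in any library, while 5 had reads in every library. Their summed level was 290 to 313 CPM in BrmKO and 278 to 324 CPM in WT. Most of it came from Nkg7, at 225 to 235 CPM in BrmKO and 224 to 257 CPM in WT. The summed level of 7 megakaryocyte and platelet markers was 444 to 618 CPM in BrmKO and 669 to 894 CPM in WT, without overlap, and Pf4 among them passed the test. The summed levels of B lineage, monocyte, neutrophil, erythroid, T and NK, and stromal and endothelial markers overlapped between genotypes. Single markers in these lists could still be apart. Kdr had 4.58 to 7.70 CPM in BrmKO and 9.48 to 27.2 CPM in WT. For Plvap these were 8.82 to 11.2 CPM and 15.3 to 36.5 CPM. Pdgfra, Lepr, Ccr2, Cd14 and Vpreb1 were also lower in every BrmKO library, and Cd4 was higher. Of the 9 stromal and endothelial markers, 7 lay below 0 in log2 fold change and 2 above, and 0 passed. What part, if any, these markers have in the results below was not tested. In RNA from pooled sorted cells, fewer cells of a type and less RNA per cell cannot be told apart.

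None of the 10 genes passed the test between genotypes, 0 higher and 0 lower in BrmKO. Over all genes, 22 of 15691 passed (0.14%, of which 0.0829% higher and 0.0574% lower; edgeR's quasi-likelihood test, Benjamini-Hochberg adjusted p under 0.05), and all 10 genes were among the 15691 kept by the filter on low counts. DESeq2 called 0.711% of the genes it adjusted and limma-voom 0.134% of its own, and each called 0 of the 10. At an unadjusted p under 0.05 edgeR found 1 of the 10, Phlda3, against 5.85% of all genes tested. Log2 fold changes ran between -0.35 and 0.73, with 5 above 0 and 5 below, and a median of 0.01, against -0.01 over all genes tested. The libraries of the genotypes did not overlap for 2 of the 10, Phlda3 (higher) and Perp (lower), where 11.1% of all genes tested did not overlap, 5.7% higher and 5.36% lower in BrmKO.

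**Figure D1:**
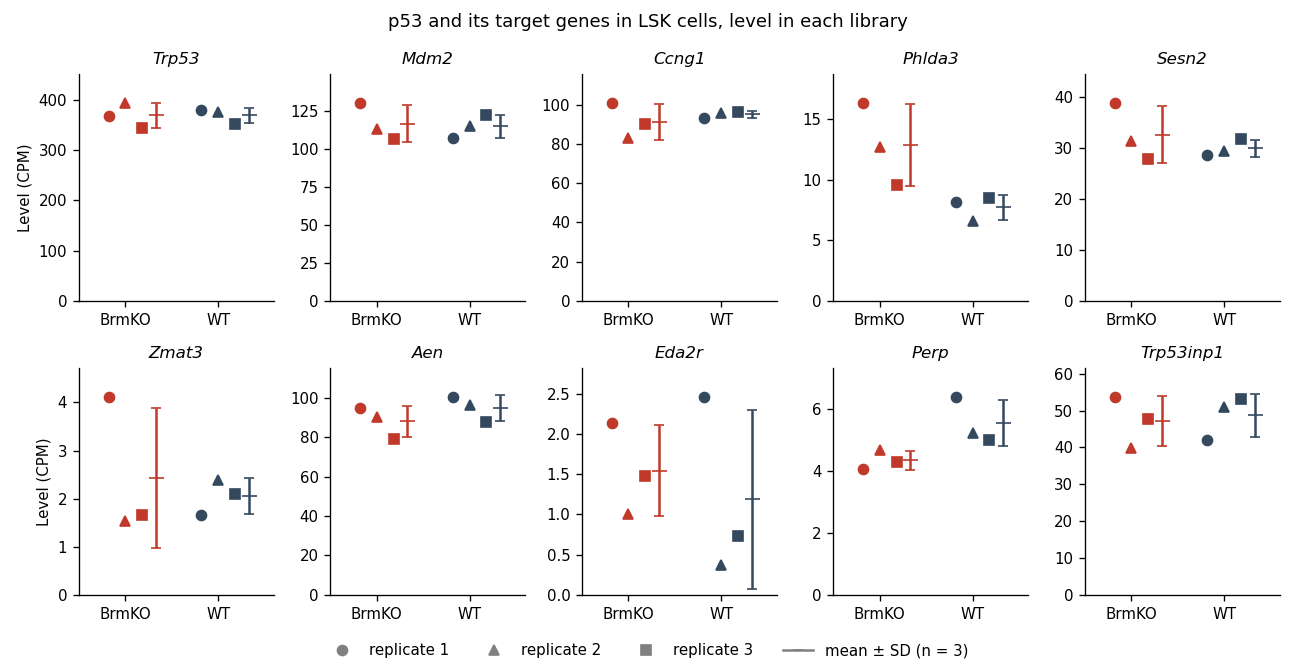
Level of each of the 10 genes in CPM (vertical axes, starting at 0, 1 panel per gene) in the 3 BrmKO and 3 WT libraries, with the replicate number as the marker shape and the mean ± SD beside the points. Phlda3 lies higher in all 3 BrmKO libraries and Perp lower, while the other 8 genes overlap between genotypes.

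Trp53 itself was abundant and nearly level across libraries. It had 11048, 11304 and 11876 reads in BrmKO replicates 1 to 3 and 13778, 12246 and 10037 reads in WT replicates 1 to 3. Scaled for depth, these are 369, 393.5 and 345 CPM in BrmKO and 380, 376 and 353 CPM in WT. BrmKO held both the highest and the lowest library, and the genotypes overlapped throughout. The highest library stood 1.14 times above the lowest, against a median of 1.25 over the 5309 tested genes with a mean of 50 CPM or more. The group means were 369 ± 24.3 CPM in BrmKO and 370 ± 14.96 CPM in WT (SD, n = 3 each), a log2 fold change of -0.00 ± 0.09 (SE) with a 95% interval from -0.20 to 0.19 (edgeR, adjusted p = 0.999). On the linear scale that interval spans 0.872 to 1.14 times the WT level. The gene (ENSMUSG00000059552) lies on chromosome 11 (69580359 to 69591873, plus strand, GRCm38), and no exon of another annotated gene overlaps its exons. A processed pseudogene on chromosome 17, Trp53-ps, matches 1111 bases of the main Trp53 transcripts at 94.96% identity and itself held only 34 reads over the BrmKO libraries and 32 over the WT libraries.

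Mdm2 encodes the ligase that holds p53 down, and its transcription is among the most direct readouts of p53 activity. It had 130.0, 113 and 106 CPM in BrmKO and 107, 115 and 122.5 CPM in WT. The highest and the lowest value again both came from BrmKO libraries. Its means were 116 ± 12.2 CPM in BrmKO and 115 ± 7.64 CPM in WT (SD, n = 3 each), with a log2 fold change of 0.02 ± 0.10 and a 95% interval from -0.21 to 0.24 (edgeR, adjusted p = 0.999). Mdm2 (ENSMUSG00000020184) lies on chromosome 10 (117688875 to 117710758, minus strand).

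The promoter sequences below, from RefSeq on GRCm38.p6, run from 250 bases before to 50 bases after the annotated start and are shown for p53's own gene, its inhibitor, the target with the closest match to a p53 site and the target with the largest difference between genotypes. Capitals mark the half-sites of the best-matching full p53 site, or in Trp53 of 1 of 2 sites with equally many mismatches. In Mdm2, which had no full site, they mark the exact half-site. The sequences are written 5′ to 3′ on the strand of their gene. They lie at chr11:69580109-69580408 (Trp53, plus strand), chr10:117710709-117711008 (Mdm2, minus strand), chr11:40755237-40755536 (Ccng1, minus strand) and chr1:135765835-135766134 (Phlda3, plus strand).
Trp53: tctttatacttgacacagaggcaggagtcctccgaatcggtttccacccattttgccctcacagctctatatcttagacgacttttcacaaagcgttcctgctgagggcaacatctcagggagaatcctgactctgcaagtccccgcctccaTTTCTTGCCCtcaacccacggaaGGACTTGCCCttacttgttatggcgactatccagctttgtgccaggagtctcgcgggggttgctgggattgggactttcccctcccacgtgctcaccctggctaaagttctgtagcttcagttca
Mdm2: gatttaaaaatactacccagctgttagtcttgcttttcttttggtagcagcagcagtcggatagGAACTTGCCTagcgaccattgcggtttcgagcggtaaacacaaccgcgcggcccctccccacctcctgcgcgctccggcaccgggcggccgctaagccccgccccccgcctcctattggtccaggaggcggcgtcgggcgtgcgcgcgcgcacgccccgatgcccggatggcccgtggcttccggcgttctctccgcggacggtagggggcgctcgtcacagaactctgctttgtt
Ccng1: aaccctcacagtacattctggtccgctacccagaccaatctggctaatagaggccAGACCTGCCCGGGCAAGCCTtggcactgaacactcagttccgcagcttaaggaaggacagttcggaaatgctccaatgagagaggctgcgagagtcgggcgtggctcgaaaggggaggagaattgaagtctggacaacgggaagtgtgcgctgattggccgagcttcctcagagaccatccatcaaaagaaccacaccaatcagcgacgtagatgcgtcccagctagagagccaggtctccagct
Phlda3: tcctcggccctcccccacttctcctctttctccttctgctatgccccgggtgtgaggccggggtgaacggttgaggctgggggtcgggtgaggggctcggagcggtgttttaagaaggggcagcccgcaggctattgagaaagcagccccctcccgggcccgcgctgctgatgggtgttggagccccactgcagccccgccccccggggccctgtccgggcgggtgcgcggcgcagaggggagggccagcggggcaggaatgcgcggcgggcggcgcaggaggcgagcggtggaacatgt

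A p53 site is made of a pair of 10-base half-sites, and the search used the p53 half-site consensus, which reads the same on both strands. A full site was counted where the half-sites lay up to 13 bases apart with at most 3 mismatches to the consensus in all, none of them at the fixed C and G. RefSeq promoters were found for 7 of the 10 genes. Ccng1 held the best match, with 1 mismatch and no gap between its half-sites, starting 195 bases before its annotated start. In Trp53 and in Ccng1, 2 pairs of half-sites met the rule, of which only 1 is in capitals. In Ccng1 that is the better pair. In Trp53 both pairs had 3 mismatches. The capitals there mark the pair 13 bases apart, while the unmarked pair, GGACTTGCCC followed by ttacttgtta, has no gap. Trp53 and Aen held full sites with 3 mismatches at best, and Mdm2 held a single exact half-site 186 bases before its start. Neither Phlda3, Sesn2 nor Eda2r held a full site or an exact half-site in this window. Sites outside the window, such as those in introns, were not searched in any gene, Mdm2 included. So 3 of the 7 genes had a full site, against 15.6% of all 32851 promoters of that length, and 4 of 7 had an exact half-site, against 8.36%. A match describes the letters and does not show binding.

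The targets tied to growth arrest and survival signalling were Ccng1, Phlda3, Sesn2 and Zmat3. Ccng1 encodes cyclin G1, which brings the phosphatase PP2A to MDM2. It had 101, 82.9 and 90.2 CPM in BrmKO and 93.3, 95.7 and 96.4 CPM in WT. The WT libraries lay close together, and the BrmKO libraries fell on both sides of them. BrmKO over WT, the log2 fold change was -0.06 ± 0.09, with a 95% interval from -0.27 to 0.15 (edgeR, adjusted p = 0.999). The gene (ENSMUSG00000020326) lies on chromosome 11 (40748552 to 40755311, minus strand).

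Phlda3 encodes a small PH-domain protein that competes with the kinase AKT for membrane lipids and so restrains AKT signalling. It had 489, 365 and 330 reads in BrmKO and 296, 214 and 241 reads in WT, that is 16.3, 12.7 and 9.59 CPM in BrmKO and 8.17, 6.58 and 8.47 CPM in WT. Every BrmKO library lay above every WT library, with the narrowest gap between BrmKO replicate 3 and WT replicate 3. The means were 12.9 ± 3.38 CPM in BrmKO and 7.74 ± 1.01 CPM in WT (SD, n = 3 each), a ratio of 1.66. The log2 fold change was 0.73 ± 0.22, with a 95% interval from 0.23 to 1.23 before any adjustment for the number of genes tested. It did not pass over all genes (edgeR, unadjusted p = 0.00874, adjusted p = 0.562), and its adjusted p lay between 0.160 and 0.9999 over the 12 alternatives tried, the lowest with DESeq2. The log2 value was 0.53 without BrmKO replicate 1. Phlda3 (ENSMUSG00000041801) lies on chromosome 1 (135766119 to 135769136, plus strand).

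Sesn2 encodes sestrin 2, a leucine-binding inhibitor of mTORC1 signalling that is also induced by other stresses. It had 38.7, 31.3 and 27.7 CPM in BrmKO and 28.6, 29.4 and 31.8 CPM in WT. BrmKO replicate 1 was highest and BrmKO replicate 3 lowest, with all WT libraries between them. The log2 fold change was 0.12 ± 0.14, with a 95% interval from -0.19 to 0.43 (edgeR, adjusted p = 0.999), and it was -0.02 without BrmKO replicate 1. Sesn2 (ENSMUSG00000028893) lies on chromosome 4 (132492032 to 132510501, minus strand).

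Zmat3 encodes a zinc finger protein that binds RNA and alters splicing and stability of its targets. It was scarce, with 123, 44 and 57 reads in BrmKO and 60, 78 and 60 reads in WT, or 4.11, 1.53 and 1.66 CPM in BrmKO and 1.66, 2.40 and 2.11 CPM in WT. BrmKO replicate 1 stood alone at the top, and the other 2 BrmKO libraries lay at or below the WT libraries. The log2 fold change was 0.24 ± 0.43, with a 95% interval from -0.72 to 1.21, and it was -0.36 without BrmKO replicate 1 (edgeR, adjusted p = 0.999 with all libraries). Zmat3 (ENSMUSG00000027663) lies on chromosome 3 (32334792 to 32366014, minus strand).

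Aen, Eda2r, Perp and Trp53inp1 are tied to cell death and, for Perp, to cell adhesion. Aen encodes an exonuclease that helps degrade DNA in dying cells. It had 94.6, 90.0 and 79.2 CPM in BrmKO and 100, 96.2 and 87.7 CPM in WT. In both genotypes replicate 3 was lowest, and the ranges overlapped. BrmKO over WT, the log2 fold change was -0.11 ± 0.10, with a 95% interval from -0.33 to 0.11 (edgeR, adjusted p = 0.999). Aen (ENSMUSG00000030609) lies on chromosome 7 (78895854 to 78911209, plus strand).

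Eda2r (ENSMUSG00000034457), on the X chromosome (97333840 to 97377216, minus strand), encodes a receptor of the TNF receptor family that binds ectodysplasin A2. It had 64, 29 and 51 reads in BrmKO and 89, 12 and 21 reads in WT, so WT replicate 1 was highest and the other 2 WT libraries were lowest of all 6. In CPM these are 2.14, 1.01 and 1.48 in BrmKO and 2.46, 0.369 and 0.738 in WT. The highest library stood 6.66 times above the lowest, the widest spread of the 10 genes, against a median of 3.04 over the 5198 tested genes with a mean under 5 CPM. The log2 fold change was 0.37 ± 0.64, with a 95% interval from -1.08 to 1.81 (edgeR, adjusted p = 0.999). Leaving out WT replicates 1, 2 and 3 in turn gave 1.48, -0.06 and 0.12, and leaving out BrmKO replicate 1 gave 0.07. With all libraries, limma-voom gave 0.70 and the fit with a replicate block 0.69. Its size thus moved with single libraries of both genotypes and with the method, and its sign turned when WT replicate 2 was left out. Stromal and endothelial markers, 9 in number, summed highest in WT replicate 1, where Eda2r was highest too. The sums were 212, 191 and 290 CPM in BrmKO and 401, 238 and 192 CPM in WT, and 7 of the markers had reads in every library. Pecam1 was the largest single part of the sum in every library, at 152, 165 and 139 CPM in BrmKO and 156, 158 and 145 CPM in WT. Among the other markers Lepr, a marker of marrow stromal cells, had 0.835, 0 and 0.523 CPM in BrmKO and 11.0, 3.23 and 1.44 CPM in WT. Col1a1, a collagen chain of stromal cells in the same list, was instead highest in BrmKO replicate 3, at 17.7, 2.33 and 58.0 CPM in BrmKO and 26.0, 1.45 and 1.65 CPM in WT. The part of these cells in the Eda2r values was not tested.

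Perp encodes a membrane protein of desmosomes that also takes part in p53-dependent death in mouse cells. It had 122, 134 and 147 reads in BrmKO and 231, 170 and 142 reads in WT, which scaled for depth are 4.08, 4.67 and 4.27 CPM in BrmKO and 6.37, 5.23 and 4.99 CPM in WT. Every BrmKO library lay below every WT library. The means were 4.34 ± 0.300 CPM in BrmKO and 5.53 ± 0.741 CPM in WT (SD, n = 3 each), a log2 fold change of -0.35 ± 0.22 with a 95% interval from -0.85 to 0.15 that includes 0 (edgeR, unadjusted p = 0.146, adjusted p = 0.962). WT replicate 1 was highest here too, the library with the highest summed stromal and endothelial markers, and the log2 fold change was -0.24 without it. The part of those cells in the Perp values was not tested. Perp (ENSMUSG00000019851) lies on chromosome 10 (18845020 to 18857073, plus strand).

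Trp53inp1 encodes a stress-induced nuclear protein that promotes p53 phosphorylation and autophagy. It had 53.6, 40.0 and 47.8 CPM in BrmKO and 42.0, 50.9 and 53.2 CPM in WT. The genotypes covered nearly the same range. The log2 fold change was -0.05 ± 0.14, with a 95% interval from -0.35 to 0.26 (edgeR, adjusted p = 0.999). Trp53inp1 (ENSMUSG00000028211) lies on chromosome 4 (11156431 to 11174379, plus strand).

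**Figure D2:**
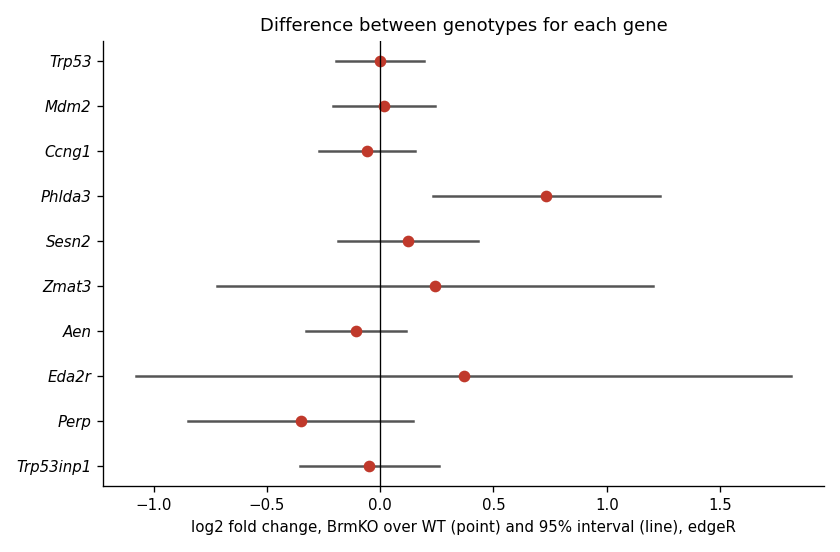
Log2 fold change of each gene, BrmKO over WT (points, horizontal axis), with its 95% interval from edgeR before adjustment (lines). The interval of Phlda3, 0.23 to 1.23, lies above 0, and those of Zmat3 and Eda2r are the widest.

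How far the 95% intervals reached from 0 varied between genes and depends on both the fold change and its SE. The SE was 0.22 for both Perp and Phlda3, and larger for Zmat3 (0.43) and Eda2r (0.64). It did not follow the level alone. Plk2, of the further lists below, had an SE of 0.94 at means of 92.9 CPM in BrmKO and 105 CPM in WT. What set the SE was not tested. For Trp53, Mdm2, Ccng1 and Aen the 95% intervals reached no further than 0.33 from 0 on the log2 scale. For Sesn2 and Trp53inp1 they reached 0.43 and -0.35. For Perp the interval reached -0.85 and for Phlda3 1.23. The intervals of Phlda3 and Zmat3 included a 2-fold higher level in BrmKO, and that of Eda2r a 2-fold difference in both directions, so differences of that size were not excluded for these genes. A p that misses the threshold does not show that the genotypes have the same level.

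BrmKO replicate 1 was the highest of the 6 libraries for 6 of the 10 genes, namely Mdm2, Ccng1, Phlda3, Sesn2, Zmat3 and Trp53inp1. Over all genes tested it was the highest for 16.5%. The other 2 BrmKO libraries were highest for 1 gene (Trp53, in replicate 2), and WT replicate 1 was highest for Aen, Eda2r and Perp. This count is a description of the libraries and was not tested.

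Set per kilobase of exon, so that genes of different length can be compared, Trp53 was the most abundant of the 10 in both genotypes. It stood at 91.3 ± 6.00 CPM per kilobase in BrmKO and 91.4 ± 3.70 in WT (SD, n = 3 each). Ccng1 followed at 26.0 ± 2.57 in BrmKO and 27.1 ± 0.456 in WT, and Mdm2 at 22.9 ± 2.39 in BrmKO and 22.6 ± 1.504 in WT. Those neighbours overlapped between libraries in BrmKO and were apart in WT, and their order turns round when the longest transcript is taken as the length. Aen came next, at 15.1 ± 1.36 CPM per kilobase in BrmKO and 16.3 ± 1.10 in WT, apart from its neighbours in both genotypes. Sesn2, Trp53inp1 and Phlda3 lay between 7.28 and 9.38 in BrmKO, with overlapping libraries, and at 8.61, 7.53 and 4.96 in WT, where each was apart from the next. Sesn2 and Trp53inp1 were barely apart there, the lowest library of Sesn2 at 8.232 and the highest of Trp53inp1 at 8.224. Their order in WT also turns round with the longest transcript as the length. Perp stood at 2.22 ± 0.154 in BrmKO and 2.83 ± 0.379 in WT. Eda2r and Zmat3 were lowest, at 0.262 and 0.213 in BrmKO and 0.201 and 0.180 in WT, and were not apart from each other in either genotype. Phlda3 thus ranked 6 of 10 in BrmKO and 7 of 10 in WT.

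**Figure D3:**
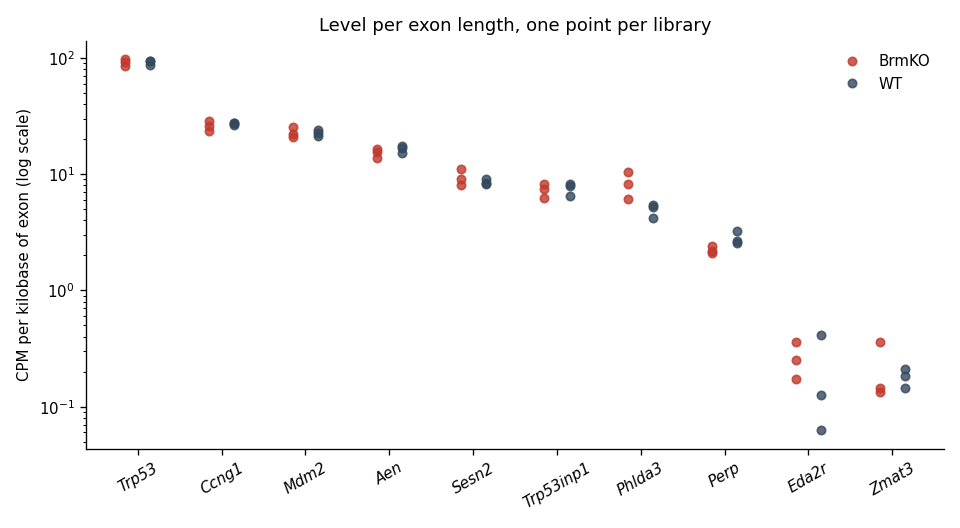
Level of each gene in CPM per kilobase of merged exons (vertical axis, log scale), with 1 point per library, BrmKO left of WT, ordered by the WT mean. Trp53 is highest near 91.3 and Zmat3 and Eda2r are lowest, below 0.5 in every library.

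The other genes of the pathway, 54 in 4 lists of textbook regulators and targets, gave the same count of 0. Of the 54, 51 were kept by the filter, and 0 passed in either direction with edgeR, DESeq2 or limma-voom. At an unadjusted p under 0.05 edgeR found 1 of the 51, against 5.85% of all genes tested. Their median log2 fold change was 0.00, with 26 above 0 and 25 below. Over all genes tested the median was -0.01, with 48.8% above 0. The libraries of the genotypes did not overlap for 6 of the 51, 4 higher and 2 lower in BrmKO, where 11.1% of all genes tested did not overlap.

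Regulators of p53 and its family numbered 20, of which 17 were tested, with 7 above 0, 10 below and a median log2 fold change of -0.03. Cdkn2a, whose product ARF inhibits MDM2, and the p53 relative Trp73 had no read in any library, and the relative Trp63 had 1 read in all. A count of 0 allows up to 0.104 CPM in a BrmKO library and up to 0.105 CPM in a WT library, on the same TMM-scaled sizes, taking 3 reads as the floor and covering counting error only. Mdm4, which binds p53 together with MDM2 and blocks its activity, had 109, 101 and 121 CPM in BrmKO and 122, 145 and 132 CPM in WT. Every BrmKO library lay below every WT library, by a narrow margin. This is a log2 fold change of -0.28 ± 0.10 (edgeR, unadjusted p = 0.0227, adjusted p = 0.746). Chek1, a kinase of the DNA damage checkpoint, had a log2 fold change of 0.22 ± 0.10, again without overlap and without passing (edgeR, adjusted p = 0.841).

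Targets for arrest and repair numbered 14, all tested, with 6 above 0, 8 below and a median of -0.05. Rrm2b, a subunit of the ribonucleotide reductase that supplies nucleotides for repair, had 5.71, 4.11 and 6.33 CPM in BrmKO and 7.03, 7.41 and 8.04 CPM in WT. The groups were apart, with BrmKO lower, and the log2 fold change was -0.48 ± 0.22 (edgeR, adjusted p = 0.871). Ddb2, which recognises ultraviolet damage, had a log2 fold change of 0.16 ± 0.12 (edgeR, adjusted p = 0.999), also without overlap. Cdkn1a, which encodes the CDK inhibitor p21 and is given here because it is the best known arrest target, had 67.1, 42.7 and 40.3 CPM in BrmKO and 79.8, 55.9 and 22.0 CPM in WT. Replicate 3 was lowest in each genotype, and WT alone spanned more than BrmKO. On the log2 scale the difference was -0.07 ± 0.48 (edgeR, adjusted p = 0.999). Plk2, a kinase induced by stress and chosen after its values were seen, varied the same way, at 156, 90.5 and 32.1 CPM in BrmKO and 161, 131 and 23.1 CPM in WT. The libraries numbered 3 also had the highest share of reads that the counting assigned to no feature, out of all reads in the counts. It was 9.29% in BrmKO and 8.41% in WT, against 5.79% to 6.61% in the other 4. The part of this share in the Cdkn1a and Plk2 values was not tested.

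Targets for cell death numbered 10, all tested, with 5 above 0, 5 below and a median of -0.00. Pidd1, which helps activate caspase 2, had 101, 102.5 and 90.9 CPM in BrmKO and 90.2, 87.1 and 76.6 CPM in WT. The BrmKO libraries were all above the WT libraries, the narrowest gap being between 90.9 and 90.2 CPM, and the log2 fold change was 0.21 ± 0.10 (edgeR, adjusted p = 0.841). Bbc3, which encodes the BCL2-family killer PUMA, had a log2 fold change of 0.22 ± 0.15 with overlapping libraries (edgeR, adjusted p = 0.979). Targets in metabolism and other processes numbered 10, all tested, with 8 above 0, 2 below and a median of 0.12. Over all genes tested 48.8% lay above 0. Zfp365, given here because its log2 fold change was the largest of the 4 lists, stood at 1.355 ± 0.90 (edgeR, adjusted p = 0.981). That value rests on few reads, 18, 35 and 16 in BrmKO and 18, 12 and 0 in WT. Ckap2, a spindle protein, had 73.2, 63.3 and 70.0 CPM in BrmKO and 59.0, 61.4 and 60.4 CPM in WT, without overlap and with a log2 fold change of 0.19 ± 0.09 (edgeR, adjusted p = 0.871). Gdf15, a secreted stress hormone, had 3.91, 3.62 and 4.79 CPM in BrmKO and 1.66, 2.70 and 3.83 CPM in WT, with a log2 fold change of 0.59 ± 0.34 (edgeR, adjusted p = 0.942) and WT replicate 3 inside the BrmKO range.

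**Figure D4:**
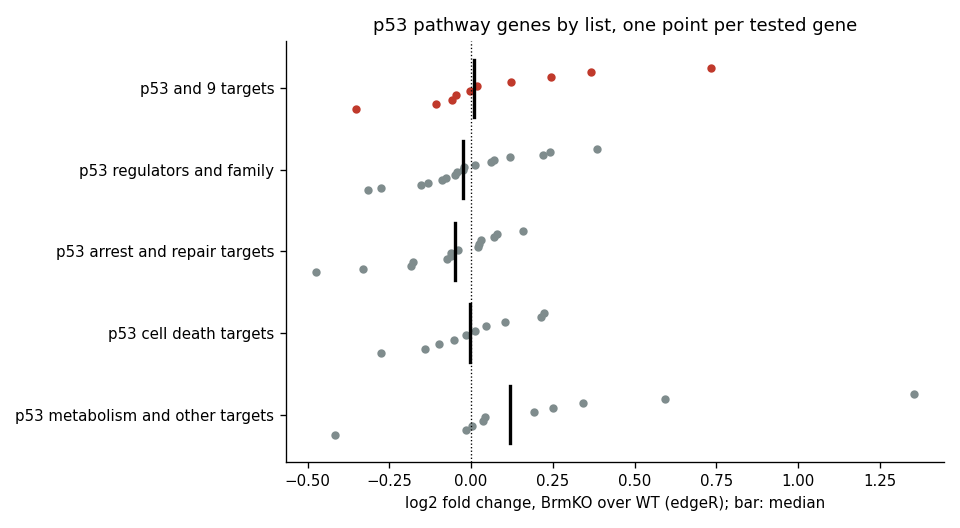
Log2 fold change, BrmKO over WT (horizontal axis), of every tested gene of the 10-gene set (top row) and of the 4 lists of other p53 pathway genes, with a bar at each median. The medians lie between -0.05 and 0.12, and points fall on both sides of 0 in every row.

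Genes whose profile over the 6 libraries was most like that of Trp53 were Usp4, Pecam1 and Cnn2, with a root mean square difference of 0.0106, 0.0176 and 0.0191 in centred log2 CPM. For Mdm2 the gene with the smallest difference was Dcaf5, at 0.0182. They were taken from 10483 other genes with a mean of at least 5 CPM.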

How the data were processed

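RNA of sorted LSK cells was measured in 3 BrmKO and 3 WT libraries, made with a low-input full-length cDNA kit per the labels' protocols. The authors deposited raw counts of reads for each Ensembl gene identifier. Per the submitters' processing notes, they used GRCm38, STAR and HTSeq, with bcl2fastq, FastQC and DESeq2 also named. Tool versions, strand setting and annotation release: not given in the sources used here. The kit does not mark strand and has no molecular identifiers, so floors cover counting error only. The 5 rows that name no gene (18.9% to 22.8% of reads) were left out. Symbols and positions came from GENCODE M21 (GRCm38), matched on the Ensembl identifier without its version, for 55141 and 55227 of 55487 genes.

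BrmKO was compared with WT by edgeR's quasi-likelihood test (edgeR 4.0.16, R 4.3.3) with TMM factors, filterByExpr and robust dispersion, no covariate, and Benjamini-Hochberg adjustment over 15691 genes at 0.05. SE is the fold change over the root of the F statistic, and intervals use the test's degrees of freedom. The script was tested on simulated data. Alternatives were RLE factors, no filter, DESeq2 1.42.0, limma-voom (limma 3.58.1), a replicate block and libraries left out. Length is that of merged exons. Copies were searched with minimap2 2.31. Counts of every pair of libraries within a genotype or across differed beyond counting noise (chi-square over its degrees of freedom, 13.2 to 47.8).

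The genes and lists were chosen with earlier results of these data known. All 10 genes were named, as were, per further list, those that passed and the 2 with the smallest p. For Trp53 and Mdm2, the rule named the 3 most similar genes, of which 2 for Mdm2 are not reported here.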

Additional observations from a re-analysis of the deposited data

How the results depend on the processing

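None of the 10 genes, and none of the 51 tested genes of the other lists, passed under any of the 12 alternatives. The number of all genes that passed was 22, against 58 with no filter on low counts, 141 with DESeq2, and 6 to 36 with 1 library left out (7, 6 and 36 on leaving out WT replicates 1, 2 and 3, and 9 on leaving out BrmKO replicate 1). The cause was not tested. Leaving out both libraries numbered 3, an alternative chosen after seeing the data, gave 18. Over the 120 refits of the 10 genes' log2 fold changes, 104 kept their direction and 16 turned, none of them past the threshold. Trp53 turned to 0.000213 with no filter, 0.000176 with DESeq2 and 0.012 without both libraries numbered 3, where Trp53inp1 also turned, to 0.0113. With 1 library left out, the ranges of the genes that turned were -0.0511 to 0.0435 for Trp53, -0.0636 to 0.0785 for Mdm2, -0.133 to 0.00493 for Ccng1, -0.0157 to 0.226 for Sesn2, -0.359 to 0.487 for Zmat3, -0.0558 to 1.48 for Eda2r and -0.146 to 0.0571 for Trp53inp1. Phlda3 (0.53 to 0.91), Perp (-0.42 to -0.24) and Aen (-0.16 to -0.04) kept their direction. With the longest transcript as length, 4 of 10 genes kept their place in the order of levels in both genotypes.

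The replicate numbers were not taken to pair the mice. The deviations of same-numbered libraries correlated at 0.0518, 0.00775 and 0.194, and BrmKO replicate 1 correlated best with WT replicate 2 (0.168). The 0.194 of the libraries numbered 3 was the highest value across genotypes. By chi-square over its degrees of freedom, those libraries also differed less from each other (18.7) than from their own genotype. There BrmKO replicate 3 stood at 28.9 and 32.0, and WT replicate 3 at 40.2 and 43.8. WT replicate 2 was also closest to the other genotype (18.35, BrmKO replicate 1), while the remaining libraries were closest to their own. With the replicate number as a block, 25 genes passed in all and 0 of the 10. Zmat3, Eda2r and Perp had the fewest reads of the 10 genes, with 29 to 147 in each BrmKO library and 12 to 231 in each WT library. The part of depth in the width of their intervals was not tested.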
